A study of Mus musculus with 12 samples.

Results

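The regions described here were LARP1 binding regions that lay in 3'UTRs, called from eCLIP of naïve CD4 T cells. eCLIP fixes a protein to RNA in living cells with ultraviolet light, recovers the protein with its RNA fragments, and reads the positions at which cDNA synthesis stopped next to the crosslink. A region was a member if it overlapped, on its own strand, an annotated 3'UTR and no 5'UTR or CDS of any GENCODE M21 transcript (GRCm38), with chromosome Y left out. This gave 188 of 3189 regions in the control list and 412 of 2367 regions in the Rnmt cKO list, or 600 of 5556 in all. Of the regions that overlapped a 3'UTR, 21 of control and 49 of Rnmt cKO were left out because a 5'UTR or CDS was annotated at the same place. Control mice were Rnmt fl/fl without CD4cre, and Rnmt cKO mice were Rnmt fl/fl with CD4cre, so that both carried the floxed Rnmt allele, with loxP sites around exon 3. CD4cre removes this exon as thymocytes pass through the CD4 CD8 double positive stage, before naïve T cells form. Cells of both genotypes came from lymph nodes of female mice on a C57B6/J background and received 400 mJ of 254 nm light, and the same antibody against LARP1 was used. The study calls these cells naïve. Its methods for eCLIP name magnetic sorting of CD4 T cells and no further sort of naïve cells. Each genotype gave 1 LARP1 library. There was therefore no replicate check, no test was made, and intervals given with shares and medians reflect only the number of regions counted. The sequencing depth was unknown from the lists. Neither list held the amount of each mRNA, so that more LARP1 on an mRNA and more of that mRNA cannot be told apart. Rnmt itself, and Ramac, which encodes the cofactor of the enzyme, had 0 regions in their exons in both lists, which checks nothing about the genotype.

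LARP1 holds mRNA at both ends. Its carboxy-terminal DM15 domain binds the cap and the first bases of mRNAs that begin with a terminal oligopyrimidine (TOP) motif, and its La-module binds poly(A) and TOP sequence and contacts the poly(A) binding protein PABPC1. RNMT adds the methyl group to the guanosine of the cap. A 3'UTR lies between the stop codon and the poly(A) tail and carries the sites of many RNA binding proteins and microRNAs.

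Several of the highest-ranking 3'UTR regions lay in sequence rich in G or in T. PureCLIP, the program that called the regions, gives each a score that depends on the model of its own library. Scores were therefore read only as percentiles within a list, where 100 is the highest. Regions from among the 10 of both lists with the highest mean percentile are shown first, to show what regions called in both genotypes looked like. Each line gives 30 bases of the transcript, centred on the merged region, from 5' to 3' (GENCODE M21, GRCm38), with the bases of the region in capitals.
Gm10031, chr1:156525583-156525612, plus strand: tttctttctttcttTTTttttttttttttt
Wdr89, chr12:75630964-75630993, minus strand: tgggatttggcttGTTTGattaaattcctg
Srrm2, chr17:23824457-23824486, plus strand: ggagggAGTCTAGGGAGGGAGGGGcacagc
Ddx5, chr11:106783836-106783865, minus strand: ttttctaagtttttTTcacataaaggtgca
Wdhd1, chr14:47258101-47258130, minus strand: tatatttttctTTTTTTTTttttttttttt
Lnpep, chr17:17524839-17524868, minus strand: aaatataaataattTTGttactatactgta
Wdr89, chr12:75631360-75631389, minus strand: aaaaaaaaagagcTTTTCgccgccggacgc
Arid1a, chr4:133680253-133680282, minus strand: acttagaaactgactGttgccctttattta

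These windows were of several kinds, whose shares cannot be read from these lines because not all 10 regions are shown. Srrm2 held runs of G broken by single bases, and Gm10031 and Wdhd1 lay in long runs of T. The Ddx5 region lay at the end of a shorter run of T, and Lnpep and Arid1a showed neither. Wdr89 had 1 region at the border between a run of A and a pyrimidine stretch.

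Regions from among the 5 highest-scoring of the control list alone are shown next, for comparison with those of the Rnmt cKO list alone. No sequence is shown for Zmat2.
Sp1, chr15:102432727-102432756, plus strand: ggagtggttGAGTGTATGTGTGagatctgt
Ddx6, chr9:44639733-44639762, plus strand: ggtgggaggggagggTactgtgtcccaaaa
Lsm14b, chr2:180035141-180035170, plus strand: tggagggagggcgggGacataaatttgttg
The 5 highest-scoring regions of the Rnmt cKO list alone were the following.
Kmt2d, chr15:98832468-98832497, minus strand: ttttcttttttttTTTTTtaaagctgcttc
Myh9, chr15:77760786-77760815, minus strand: ttttcttttttttTTTTttaaaggaaaacc
Tmsb10, chr6:72957559-72957588, minus strand: caccccgccccATCATCTCcaagaccccct
Mllt6, chr11:97683910-97683939, plus strand: cctcaccttttttTTTTttaaagacaaggt
Myh9, chr15:77760677-77760706, minus strand: ccgcaccccttttTTTAtataatacaagtg
In the control group Sp1 held GT dinucleotides, and the regions of Ddx6 and Lsm14b followed runs of G broken by single bases. In the Rnmt cKO group 3 of the 5 regions, in Kmt2d, Myh9 and Mllt6, lay near the end of a run of T that was followed by AAAG.

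The 3'UTR regions ranked low in both lists. Their median percentile was 33.3 for control (exact 95% interval of the median 30.1 to 37.5, 188 regions) and 38.7 for Rnmt cKO (34.6 to 42.4, 412 regions). For 5'UTR regions the medians were 81.0 (77.5 to 85.1) and 79.7 (75.7 to 83.9), and for CDS regions 64.5 (55.6 to 68.8) and 62.4 (56.8 to 65.1). Intronic regions, with medians of 34.2 (32.1 to 36.5) and 33.9 (30.7 to 36.6), were the class closest to 3'UTRs in the control list. Above the 90th percentile of their list lay 0 control and 2 Rnmt cKO 3'UTR regions, against 117 and 126 of the 5'UTR regions. The highest 3'UTR percentile was 87.9 in the control list, at rank 385, and 93.2 in the Rnmt cKO list, at rank 161. As a share of all regions, 3'UTRs accounted for 5.90% in control (5.13 to 6.77%, 95% Wilson interval) and 17.4% in Rnmt cKO (15.9 to 19.0%). A larger Rnmt cKO share was not particular to 3'UTRs. CDS regions made up 6.15% and 17.2%, 5'UTR regions 9.47% and 14.9%, and non-coding exons 4.39% and 8.11%. Intronic regions made up 31.8% and 26.4%, and intergenic regions 40.5% and 14.0%. As a share of the summed score 3'UTRs held 0.750% and 2.69%. The share of the control list is lowered by scores that occurred 20 or more times in it, which 34.2% of all its regions had but 5 of the 188 in 3'UTRs. Such a score was held by 1.48% of all Rnmt cKO regions and 0 of the 412 in 3'UTRs. Without them 3'UTRs held 8.72% of the control list.

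**Figure D1:**
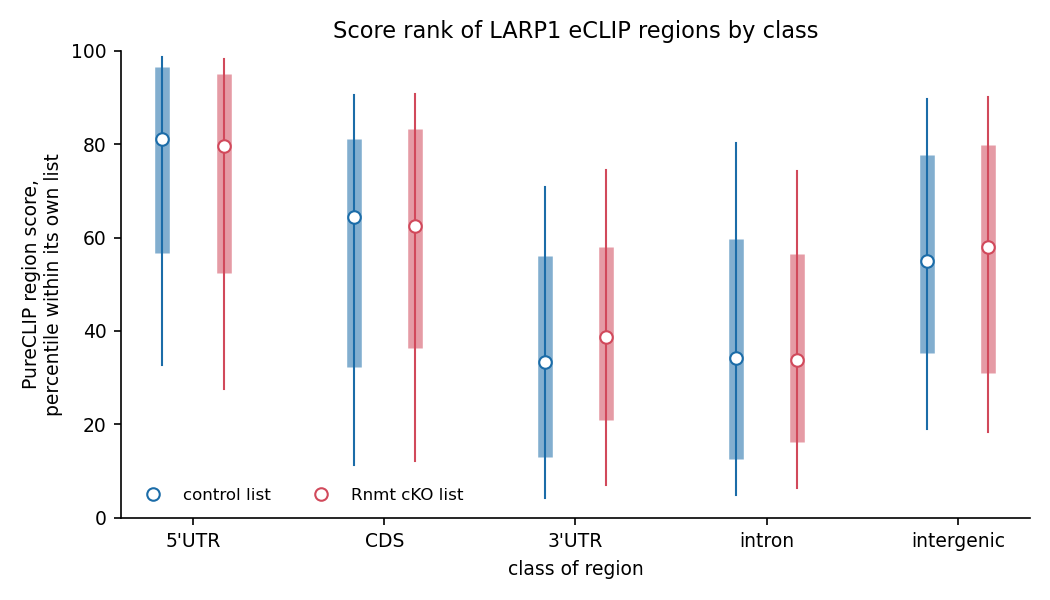
PureCLIP region score as a percentile within its own list (0 to 100), for 5 classes of region in the control (blue) and Rnmt cKO (red) lists. Points are medians, thick bars span the middle 50% and thin lines the 10th to 90th percentile of the regions in a class. The 3'UTR medians of 33.3 and 38.7 lie below those of 5'UTR and CDS regions in both lists.

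Few 3'UTR regions were found in both lists. In the control list 48 of 188 3'UTR regions overlapped an Rnmt cKO region by at least 1 nt, a share of 25.5% (19.8 to 32.2%), close to the 26.3% of all control regions that did so. In the Rnmt cKO list 48 of 412 had a control region on top of them, or 11.7% (8.90 to 15.1%), below the 35.4% of all Rnmt cKO regions. The shares of 5'UTR regions were 77.8% (72.8 to 82.1%) and 67.0% (62.0 to 71.7%). Those of CDS regions were 63.8% and 30.6%, of non-coding exons 29.3% and 21.4%, and of introns 14.5% and 23.2%. In the control list a low share was therefore not particular to 3'UTRs. In the Rnmt cKO list the 3'UTR share was the lowest of these classes. Allowing regions to lie up to 30 nt apart raised the number of 3'UTR regions found in both lists to 53 in each list. An example is Bach2, a transcription factor of naïve T cells, where a control region of 1 nt lay 2 nt from an Rnmt cKO region of 1 nt. Merging gave 552 regions, of which 48 came from both lists, 140 from control alone and 364 from Rnmt cKO alone. Within the 48, 37 had the same first base in both lists and 44 had first bases at most 2 nt apart. The percentile was higher in the control list for 24 of them and higher in the Rnmt cKO list for the other 24. Regions of both lists ranked above the others, with a median percentile of 54.8 (37.0 to 63.4) against 28.8 (26.9 to 34.4) in the control list and of 61.4 (48.8 to 68.1) against 36.1 (32.4 to 40.6) in the Rnmt cKO list.

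The number of crosslink sites per region differed between the lists. In the control list 15 of 188 3'UTR regions had 2 or more sites, or 7.98% (4.89 to 12.7%). Of the 412 Rnmt cKO regions 156 did, or 37.9% (33.3 to 42.6%). Over all regions these shares were 17.4% and 45.3%, so that 3'UTR regions were below their list in both. The most sites in a region were 3 in the control list against 8 in that of Rnmt cKO. In total 205 control sites and 700 Rnmt cKO sites made up the 3'UTR regions. In the 48 regions of both lists, 20 had more sites in the Rnmt cKO list, 2 had more in the control list and 26 had as many.

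The bases next to the first base of the region were unlike those of the 3'UTRs as a whole. T made up 30.5% of the bases of the 3'UTRs hit in the control list and 30% of those hit in the Rnmt cKO list, and G 22.7% and 22.8%. One base upstream of the region, T was found in 73.4% of control regions (66.7 to 79.2%) and in 82.8% of those in Rnmt cKO (78.8 to 86.1%). The same base was T in 76.0% of control and 77.9% of Rnmt cKO CDS regions and in 69.7% and 62.6% of 5'UTR regions, so that it was common to all 3 classes. At the first base itself the lists differed. G was the commonest base in the control list, with 49.5% (42.4 to 56.6%) against 36.7% T (30.1 to 43.8%). T was the commonest in the Rnmt cKO list, with 55.1% (50.3 to 59.8%) against 35.4% G (31.0 to 40.2%). The number of sites moved with this difference, and its part in the result was not tested. In regions of 1 site T stood first in 34.1% of control regions (27.5 to 41.4%, 173 regions) and in 40.6% of those in Rnmt cKO (34.8 to 46.7%, 256 regions), whose intervals overlapped. In regions of 2 or more sites it stood first in 10 of 15 control and 123 of 156 Rnmt cKO regions. The 48 regions of both lists did not show the difference. There T stood first in 41.7% in the control list (28.8 to 55.7%) and in 35.4% in the Rnmt cKO list (23.4 to 49.6%). G stood first in 41.7% and 43.8% of them.

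G and T alternated upstream of control regions. G was found in 47.3% of them 4 nt upstream of the first base, in 46.8% at 6 nt, in 50% at 8 nt and in 44.1% at 10 nt. T was found in 58.5% at 5 nt, 45.2% at 7 nt and 45.7% at 9 nt. For Rnmt cKO, G ranged from 25.5% to 33.7% at 4, 6, 8 and 10 nt upstream, and T rose to 56.6% at 2 nt upstream. This list alternated too, with smaller differences. T was found in 51.7%, 48.5% and 44.7% of its regions at 5, 7 and 9 nt. At 4, 6 and 8 nt T was found in 39.6%, 39.6% and 37.6%. G at 5, 7 and 9 nt was 22.3%, 22.6% and 25.2%. Both lists had little G 3 nt downstream of the first base, with 13.3% and 11.7%.

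**Figure D2:**
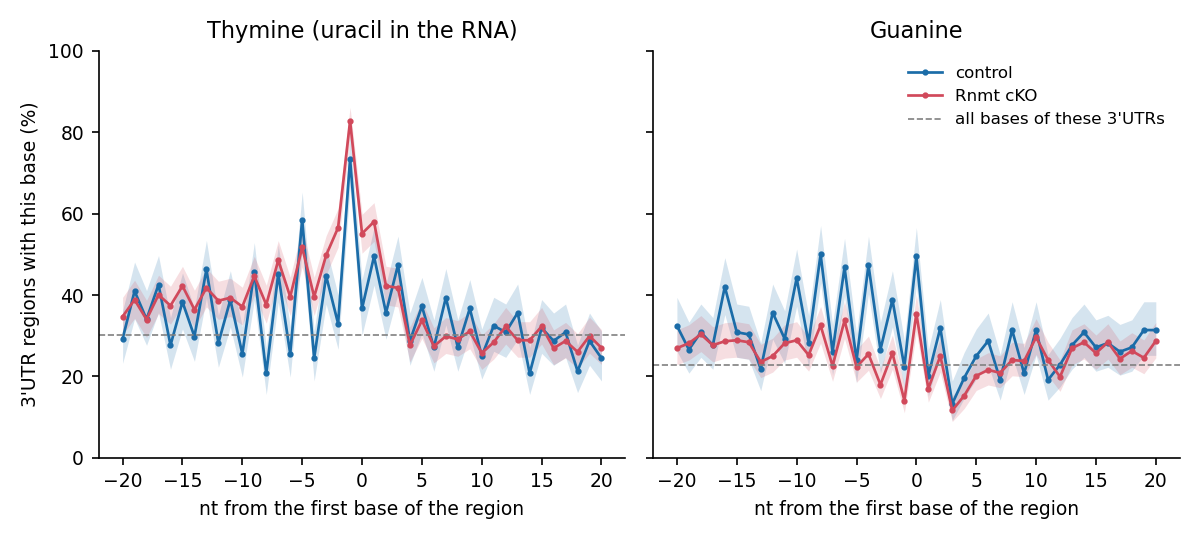
Share of 3'UTR regions (%) with thymine (left) or guanine (right) at each position from 20 nt upstream to 20 nt downstream of the first base of the region, for the control (blue, 188 regions) and Rnmt cKO (red, 412 regions) lists. Shaded bands are 95% Wilson intervals and the dashed line is the share among all bases of the 3'UTRs hit. Both lists peak in thymine 1 nt upstream of the region. Guanine rises at every other base close upstream, more in the control list than in that of Rnmt cKO.

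Sequence features were counted in windows of 30 nt, which took in the first base, 15 nt upstream and 14 nt downstream of it, on the RNA strand only. A run of T was TTTTTTTT, a GT repeat was GTGTGTG, and paired G runs were GGGNGGG. These were chosen after the windows had been seen. Beside each share stands the share of all windows of the same length in the same 3'UTRs. Runs of T were found in 15 of 188 control regions, or 7.98% (4.89 to 12.7%), and in 70 of 412 Rnmt cKO regions, or 17.0% (13.7 to 20.9%). Among all windows they made up 1.14% and 1.35%. A GT repeat was found in 11.2% of control regions (7.42 to 16.5%) and in 4.85% of those in Rnmt cKO (3.16 to 7.38%), against 1.28% and 1.14% of all windows. Paired G runs were found in 18.6% of control regions (13.7 to 24.8%) and in 11.2% of those in Rnmt cKO (8.48 to 14.6%), against 1.51% and 1.55% of all windows. Runs of T and the other 2 features met in the same window in 0 control regions and 1 Rnmt cKO region. None of the 3 features was present in 62.2% of control and 67.2% of Rnmt cKO regions.

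The 3 features were found in few 5'UTR and CDS regions, and other classes were not counted. Runs of T were found in 0.662% of control and 1.42% of Rnmt cKO 5'UTR regions, and a GT repeat or paired G runs in 2.65% and 1.70%. In CDS regions runs of T were found in 0 of 196 control regions, which allows a share of up to 1.53% (taken as 3 counts of the total, here and for other counts of 0), and in 0 of 408 Rnmt cKO regions, which allows up to 0.735%. The upper limits of these CDS shares lie below the lower bounds of the 3'UTR shares of runs of T in both lists. The features were chosen from 3'UTR windows, and their shares among all windows of 5'UTRs and CDS were not counted. The difference between classes therefore cannot be read as a trait of LARP1 regions in 3'UTRs.

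The number of sites also went with the features. Among regions of 1 site, a run of T was found in 6.94% of control regions (4.01 to 11.7%) and in 7.81% of those in Rnmt cKO (5.11 to 11.8%). Among regions of 2 or more sites it was found in 3 of 15 for control and 50 of 156 for Rnmt cKO, 32.1% of the latter (25.2 to 39.7%). A GT repeat or paired G runs had the opposite order. They were found in 30.6% of control regions (24.2 to 37.9%) and in 18.8% of those in Rnmt cKO (14.4 to 24%) of 1 site, and in 20% of control and 11.5% of Rnmt cKO regions (7.42 to 17.5%) of 2 or more. The 48 regions of both lists held these G-rich features in 39.6% (27.0 to 53.7%) and a run of T in 8.33% (3.29 to 19.6%). Rnmt cKO regions with a run of T had a median percentile of 52.2, against 38.7 over all 3'UTR regions of that list, and control regions with one had 29.3, against 33.3.

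**Figure D3:**
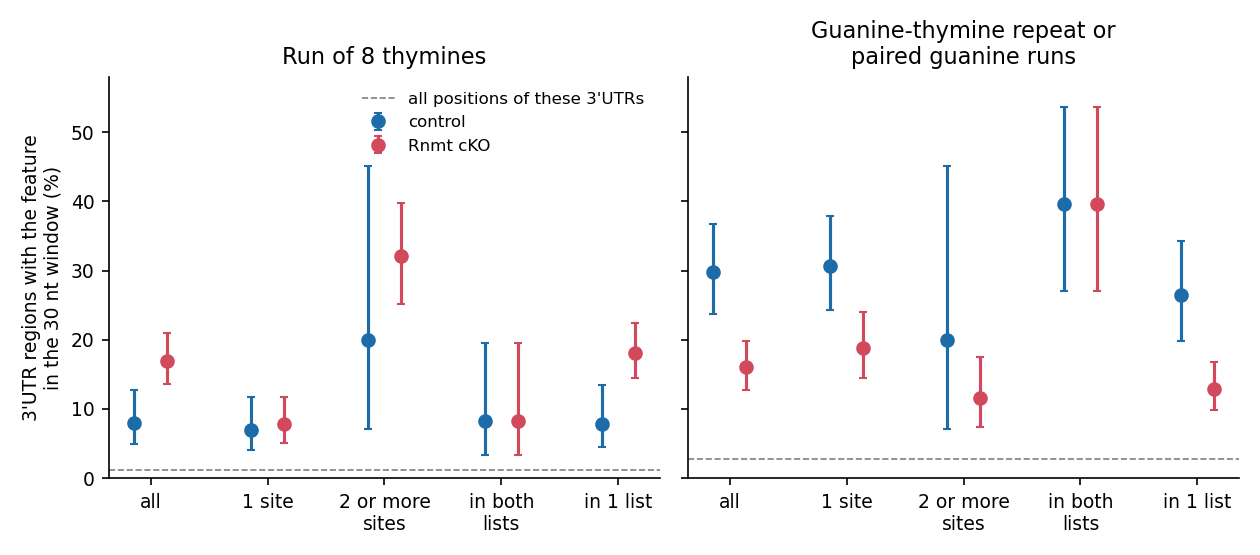
Share of 3'UTR regions (%) whose 30 nt window held a run of 8 thymines (left) or a guanine-thymine repeat or paired guanine runs (right), in the control (blue) and Rnmt cKO (red) lists, for all regions and by number of crosslink sites and presence in both lists. Bars are 95% Wilson intervals and the dashed line is the mean over both lists of the share among all windows of the same 3'UTRs. Runs of thymine reach 32.1% in Rnmt cKO regions of 2 or more sites, and the guanine-rich features reach 39.6% in regions of both lists.

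Regions lay near the 3' end of the run of T. Taking runs of 8 or more T that came within 10 nt of the first base, 65 of 70 Rnmt cKO regions and 13 of 16 control regions began inside the run, with a median of 3 nt left to its last T in both lists. The run was followed by A in 40 of the 70 Rnmt cKO regions, or 57.1% (45.5 to 68.1%), and in 11 of the 16 control regions. Among all runs of this length in the same 3'UTRs, A followed in 39.7% for the Rnmt cKO list and 40.2% for the control list. Most runs had no region. Of 466 runs of 8 or more T in the 3'UTRs of the Rnmt cKO list, 72 had a region within 10 nt, and of 266 in those of the control list, 16 had. The share was larger for longer runs. In the Rnmt cKO list it was 11.4% of runs of 8 to 11 T, 21.6% of runs of 12 to 15 T and 30% of runs of 16 or more, and in the control list 3.98%, 5.45% and 17.1%.

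For other known 3'UTR elements the share of all windows lay within the intervals given. The poly(A) signal AATAAA was found in 1.06% of control regions (0.292 to 3.80%) and in 1.21% of those in Rnmt cKO (0.519 to 2.81%), against 1.79% and 1.84% of all windows. The AU-rich element TATTTAT was found in 0 of 188 control regions, which allows a share of up to 1.60%, and in 3 Rnmt cKO regions, against 0.558% and 0.581% of all windows. The Pumilio site TGTANATA was found in 3 control and 5 Rnmt cKO regions, 1.60% (0.544 to 4.59%) and 1.21% (0.519 to 2.81%), against 0.636% and 0.632%.

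Regions were spread along the 3'UTR. On a scale from 0 at its first to 1 at its last base, in the APPRIS principal transcript where there was one, the median position was 0.457 for control (0.417 to 0.513) and 0.429 for Rnmt cKO (0.356 to 0.468). Where the poly(A) tail begins in these cells was not measured, so distances are to annotated ends. The annotated transcript end was a median of 1349.5 nt away in the control (1131 to 1630 nt) and 1426.5 nt in the Rnmt cKO list (1237 to 1661 nt). Within 100 nt of it lay 5 control regions, or 2.66% (1.14 to 6.07%), and 10 Rnmt cKO regions, or 2.43% (1.32 to 4.41%). The last 100 nt made up 5.40% of the same 3'UTRs for the control list, weighted by their regions, and 5.98% for the Rnmt cKO list, above the interval of the latter. Distances to the nearest annotated end of any transcript gave 8 control regions, or 4.26% (2.17 to 8.17%). They gave 17 Rnmt cKO regions, or 4.13% (2.59 to 6.51%). The share of bases that close to any annotated end was not counted, so these values have no background beside them. Within 100 nt of the 3'UTR start lay 9 control and 20 Rnmt cKO regions, 4.79% (2.54 to 8.85%) and 4.85% (3.16 to 7.38%). These intervals include the 5.40% and 5.98% that the first 100 nt made up. When each 3'UTR was cut into 10 equal bins, the last 2 bins held 14 and 14 control and 25 and 24 Rnmt cKO regions.

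**Figure D4:**
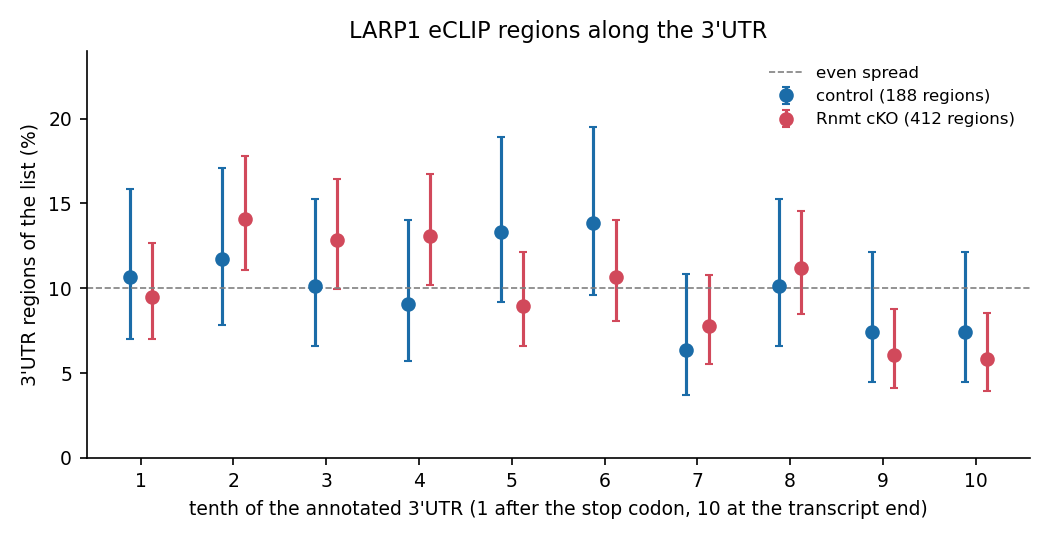
Share of the 3'UTR regions of each list (%) in each of 10 equal bins of the annotated 3'UTR, from the stop codon (1) to the transcript end (10), for control (blue, 188 regions) and Rnmt cKO (red, 412 regions). Bars are 95% Wilson intervals and the dashed line at 10% is an even spread. The lowest Rnmt cKO shares are in the last 2 bins, with 6.07% and 5.83%.

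The 3'UTRs hit were long. Their median length was 2785 nt over the 173 genes of the control list (2562 to 3032 nt) and 2597 nt over the 282 genes of the Rnmt cKO list (2357 to 2800 nt), against 794 nt over 21597 protein-coding genes with an annotated 3'UTR. The genes were 374 in all, each of them protein-coding, and 81 were in both lists. These 81 were 46.8% of the control genes and 28.7% of the Rnmt cKO genes. Genes with a 3'UTR region made up 0.801% of protein-coding genes in the control list against 1.31% in that of Rnmt cKO, counting also genes that T cells do not express. Of the control genes 6 had a 5'UTR region in the same list and 5 a CDS region, 3.47% (1.60 to 7.36%) and 2.89% (1.24 to 6.59%). Of the Rnmt cKO genes 32 had a 5'UTR region and 37 a CDS region, 11.3% (8.15 to 15.6%) and 13.1% (9.67 to 17.6%). With control first, the lists as a whole held 302 and 352 5'UTR regions and 196 and 408 CDS regions. The same shares over all protein-coding genes were not counted, so these values cannot be read as a trait of genes with a 3'UTR region.

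A few genes held many regions. Of the 374 genes, 280 had 1 merged region, 56 had 2, and 38 had 3 or more, which together held 160 of the 552 regions. In the control list no gene had more than 3 regions. Lnpep, the insulin-regulated aminopeptidase, had 13 regions over its 3'UTR of 8342 nt, all of them in the Rnmt cKO list and 2 also in the control list. Its regions of both lists ranked at percentiles of 75.2 and 63.4 in the control and 77.9 and 54.8 in the Rnmt cKO list. The 11 others ranked between 11.6 and 65.6. Mllt6, whose human relative is a fusion partner of MLL in leukaemia, had 8 regions, all in the Rnmt cKO list alone, with percentiles from 13.4 to 87.6. Klf13, a Krüppel-like transcription factor, had 7, of which 3 were of both lists. One of them was the highest-ranking 3'UTR region of the control list, with percentiles of 87.9 in the control list against 87.4 in that of Rnmt cKO. It lay 1519 nt into a 3'UTR of 5160 nt, and its neighbours of both lists ranked at 31.0 and 37.0 in the control list and 35.2 and 21.3 in the Rnmt cKO list.

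The RNA helicases Ddx17 and Ddx5 had 7 and 5 regions. Ddx17 had 6 in the Rnmt cKO and 1 in the control list, and no region of both. In Ddx5 a region of both lists lay 106 nt into the 3'UTR, with percentiles of 75.4 and 78.4, and the 4 others were of the Rnmt cKO list alone. Tet3, a dioxygenase that oxidises methylcytosine, had 5 Rnmt cKO and 2 control regions that did not overlap. Fnbp1, a membrane-bending F-BAR protein, had 7 Rnmt cKO regions and no control region. The zinc finger gene Zfp871, Tnrc6b, a scaffold of microRNA silencing, and Prrc2c each had 4 Rnmt cKO regions and 1 control region that did not overlap them. A run of T was present at 0 to 2 of the regions of each of these 10 genes.

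**Figure D5:**
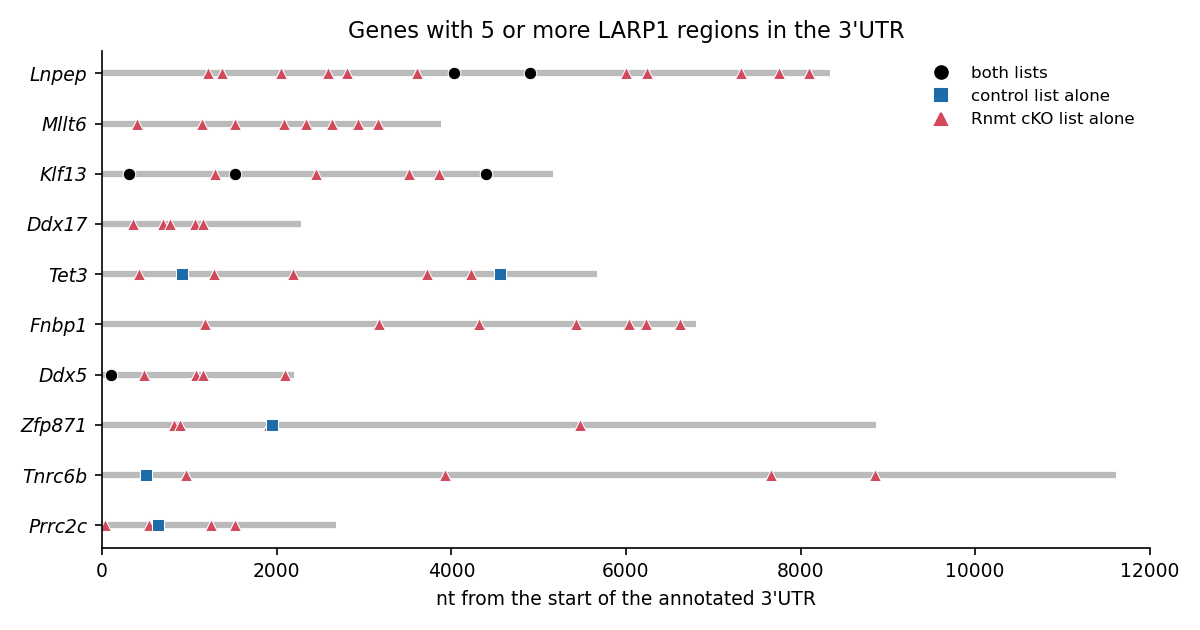
Positions of merged LARP1 regions along the annotated 3'UTR (grey bars, nt from its start) of the 10 genes with 5 or more of them. Black circles are regions of both lists, blue squares of the control list alone and red triangles of the Rnmt cKO list alone, and 2 of the 7 Ddx17 regions lie in other 3'UTRs and are not drawn. Lnpep carries 13 regions, of which 2 are of both lists, and Mllt6 and Fnbp1 carry regions of the Rnmt cKO list alone.

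Among the other high-ranking regions of both lists, Srrm2, which encodes a scaffold protein of the splicing machinery, had percentiles of 79.9 and 76.3, and Hnrnpa0, an hnRNP protein, 77.2 and 70.1, control first. Wdhd1, a DNA replication factor, had 85.1 and 68.1. Arid1a, a subunit of the BAF chromatin remodeller, had 70.9 and 66.4. In the control list alone, the transcription factor Sp1 ranked at 77.4, Zmat2, a splicing factor, at 75.2, the mRNA decay helicase Ddx6 at 74.3, and its partner Lsm14b at 72.7. In the Rnmt cKO list alone, the histone methyltransferase Kmt2d ranked at 93.2 with 5 sites, and Myh9, the heavy chain of non-muscle myosin, had regions at 91.3 and 84.2 that lay 215 and 106 nt from the transcript end. Tmsb10, an actin-binding thymosin, ranked at 89.8 with 6 sites, 44 nt after the start of its 3'UTR, and Mllt6 at 87.6.

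Some of the highest-ranking 3'UTR regions lay in sequence that another gene also has. Windows of 101 nt around the first base were aligned to the transcripts of all other genes, with at least 90% identity over at least 40 nt. Of the 552 merged regions 24 had such a match, or 4.35% (2.94 to 6.39%), and for 7 of these the match was to 10 or more genes. The share was 10.4% of regions of both lists (4.53 to 22.2%), 2.14% of the control list alone (0.731 to 6.11%) and 4.40% of the Rnmt cKO list alone (2.72 to 7.02%). These shares include matches to a gene annotated at the same place, where the same region was found again and which are no copies. They were Gm28048 with B3gnt2 in the control list alone, and Gm38394 with Zc3h11a in the Rnmt cKO list alone. Both regions of Wdr89, which ranked at 72.5 and 71.7 in the control and 85.7 and 80.5 in the Rnmt cKO list, matched Rplp2, a protein of the ribosomal stalk and the product of a TOP mRNA. The region at chr12:75631372-75631376 was the one at the border of a run of A. From 1 nt after its first base its window matched the 5'UTR of Rplp2 at 98% over 50 nt, and within 15 nt of the matching base Rplp2 itself had regions with percentiles of 98.9 in the control list against 98.6 in that of Rnmt cKO. The region at chr12:75630976-75630980 matched the CDS of Rplp2 at 100% over 101 nt, and no Rplp2 region lay within 15 nt of the match. Gm10031 matched the 3'UTR of the kinase gene Csnk2a1 at 96.1% over 103 nt, and no Csnk2a1 region lay within 15 nt of the aligned base. The Csnk2a1 region of both lists, with percentiles of 54.1 and 82.8, in turn had a window that matched Gm10031 at 97.0%. Tmsb10 matched Gm9844 at 99.0% and Rpl41 matched Gm10076 at 100%. Gm10073 matched the 3'UTR of the stalk protein gene Rplp1. Which copy the reads of these regions came from was not tested.

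TOP mRNAs are the main LARP1 targets at the 5' end. All protein-coding genes, the background for the lists that follow, include genes that T cells do not express. Of 87 cytosolic ribosomal protein genes, 1 had a 3'UTR region in the control list against 3 in that of Rnmt cKO, 1.15% and 3.45%, beside 0.801% and 1.31% of all protein-coding genes. Rpl41 had 1 in both lists, with percentiles of 27.0 and 77.0, and Rpl39 and Rpl4 had 1 each in the Rnmt cKO list, at 61.6 and 60.1. Of 24 other TOP mRNAs, 1 had a region in the control list against 4 in that of Rnmt cKO, 4.17% and 16.7%, beside the same 0.801% and 1.31%. The control gene was Eif3a, a subunit of initiation factor 3, at 34.4. In the Rnmt cKO list Pabpc1, the poly(A) binding protein, ranked at 75.4, the initiation factor Eif4b at 65.2 and 50.6, Hnrnpa1 at 44.6 and the histone chaperone Nap1l1 at 21.3.

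Genes of naïve T cell state and trafficking numbered 24, of which 3 had a 3'UTR region in the control list against 5 in that of Rnmt cKO, 12.5% and 20.8%, beside 0.801% and 1.31% of all protein-coding genes. Btg1, an antiproliferative factor of resting lymphocytes, had 3 regions in the Rnmt cKO list alone, with percentiles of 77.8, 59.5 and 44.4. The highest Bach2 region ranked at 71.3 in the Rnmt cKO list, and its control region, described above, at 28.5. Foxp1, a transcription factor of T cell quiescence, ranked at 70.6 and had no control region. Klf6 had a region of both lists, at 54.5 and 34.7. Of 22 genes of T cell identity and receptor signalling with an annotated 3'UTR, Ptprc, which encodes CD45, had 1 control region at 61.6 and no gene had an Rnmt cKO region. The shares were 4.55% and 0%, beside the same 0.801% and 1.31%.

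In the list of mRNA decay, poly(A) and LARP family genes, 3 of 30 had a region in the control list against 4 in that of Rnmt cKO, 10% and 13.3%, beside 0.801% and 1.31% of all protein-coding genes. Besides Pabpc1, Ddx6 had 1 control region and 2 Rnmt cKO regions that did not overlap. Zfp36l2, which binds AU-rich elements, had a control region at 25.3 and an Rnmt cKO region at 70.6 that did not overlap, and Zfp36l1 of the same family had a control region at 12.6. Larp1 itself had a region in the Rnmt cKO list, 1150 nt into its 3'UTR of 3272 nt, at a percentile of 39.2. Of 19 genes of cap synthesis and cap binding, the cap-binding protein gene Eif4e2 ranked at 71.1 in the control list, and the decapping enzyme Dcp2 and Eif4ebp2, an inhibitor of the cap-binding factor, at 16 and 3.99 in the Rnmt cKO list. The shares of these 19 genes were 5.26% and 10.5%, beside the same 0.801% and 1.31%.

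The actin cytoskeleton list of 20 genes had regions in Myh9 and Tmsb10, both in the Rnmt cKO list alone. With control first, these were 0% and 10% of the list, beside 0.801% and 1.31% of all protein-coding genes. Of 20 nuclear-encoded genes of the respiratory chain, Atp5e had a region of both lists, at 36.8 and 74.0, and Atp5j2 a control region at 6.44. They made up 10% and 5% of that list, beside the same shares of all protein-coding genes. The 14 genes of MHC class I and antigen presentation and the 26 marker genes of other cells had no 3'UTR region in either list. For lists this short, a count of 0 cannot be told apart from the shares over all protein-coding genes. In the exons of marker genes as a whole, 2 of 8 T cell markers had a region in the control list against 3 in that of Rnmt cKO, among them Cd3d and Cd4 in both. Of markers of other cells Hbb-bs, a globin gene, had 1 such region, in control, while B cell, myeloid, CD8 T or NK cell, platelet and stroma markers had none.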

How the data were processed

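Per the labels and the study's methods, the authors moved a 10 nt random barcode to the read name (UMI-tools), trimmed adapters (cutadapt), aligned reads to mm10 (STAR 2.5.2b) and removed duplicates by barcode. They called crosslink sites with PureCLIP separately in each LARP1 library, taking the input library of that genotype as control signal and the model learned on chromosomes 1 to 5. The deposited lists hold the PureCLIP score of each region, which is not scaled between libraries, and a score for each of its sites. The authors' later selection by read ratio to input and to IgG is not part of these lists, so that regions it would have removed are counted here. A later GENCODE release was used for annotation in the study.

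Here regions were assigned with all transcripts of GENCODE M21, and bases were read from its transcript sequences. Each region was placed on 1 transcript, APPRIS principal first, then basic, then the longest 3'UTR. Shared regions were those with at least 1 nt in common between lists, on the same strand. Shares have 95% Wilson intervals and medians exact order-statistic intervals. Windows were aligned with BLAST 2.17.0. Scripts (Python 3.11.15, scipy 1.17.1) were tested on simulated regions. The regions, gene lists and features were chosen with earlier results of these data known. The regions and genes named were the 10 of both lists with the highest mean percentile, the 5 highest-scoring of each list alone, the 10 genes with the most regions, and up to 4 genes per gene list. Some of these regions, sequences and matches are not reported here. The sequences of single-list regions, the genes with copies elsewhere, Nap1l1, Csnk2a1, Heg1 and Cox7a2l were added after their values were seen. Alternatives were the number of sites, score, annotation, overlap and distance limits, repeated scores, and, added after seeing the data, window and run length.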

Additional observations from a re-analysis of the deposited data

How the results depend on the processing

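The alternatives gave 118 values, of which 82 lay inside the interval of the reported value (for counts, a factor of 1.5) and 36 outside it. No paired analysis was possible because there was 1 LARP1 library per genotype, and for the same reason leaving out a replicate was not possible. Counts fall under filters by construction, and the cause of the other changes was not tested. Precision is limited by the 188 control regions, of which 15 had 2 or more sites. Under every alternative tried for them, the Rnmt cKO list kept the higher share of 3'UTR regions, of regions with 2 or more sites, of T at the first base and of runs of T, and the control list the higher shared share and share of G-rich features. Regions of both lists taken alone were not among these alternatives, and in them the order of T at the first base was reversed. The order of the median percentile was reversed with at least 2 sites. That of the share near the transcript end changed in 3 of 8 settings, and the nearest annotated end gave 4.26% and 4.13%. In the values below the control list comes first. With at least 2 sites, 15 and 156 regions were left, 2.71% and 14.5% of the lists. The shared shares were 46.7% and 4.49%, the median percentiles 67.5 and 59.2, the shares near the end 6.67% and 4.49%, T at the first base 66.7% and 78.8%, runs of T 20% and 32.1%, and G-rich features 20% and 11.5%, and the control position was 0.587. Above the median score, 59 and 143 regions were left, 3.99% and 12.1% of the lists. The shares with 2 or more sites were 15.3% and 72.0% and T at the first base 23.7% and 63.6%. Control values were a shared share of 33.9%, a position of 0.402, G-rich features of 39.0%, and 0% near the end, where 3 counts of 59 would be 5.08%. Runs of T in the Rnmt cKO list were 26.6%. Any overlap with a 3'UTR gave 19.5% of the Rnmt cKO list, leaving out repeated scores 8.72% of the control list, and control lists of equal length a shared control share of 33.3%. Within 50 nt of the end lay 0% and 0.728%. Runs of 6 T were found in 26.2% of Rnmt cKO regions.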

Other observations

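Of the regions within 100 nt of the transcript end, those of Heg1 and Cox7a2l were in both lists. The Heg1 region lay 80 nt from the end of a 3'UTR of 2636 nt, with percentiles of 32.3 for control and 73.3 for Rnmt cKO. The Cox7a2l region, in a gene of respiratory supercomplex assembly, lay 96 nt from the end of a 3'UTR of 688 nt, with percentiles of 27.5 and 67.2. The regions of 7 genes had windows that matched 10 or more other genes. These were Tnfrsf14, Resf1, Tbl1xr1, Fnbp1, Ubxn7 and Cds2 in the Rnmt cKO list alone and Ripor2 in the control list alone, with 434 other genes for Tnfrsf14 and 20 for Cds2. Only 2 of the 600 regions lay in annotated 3'UTRs of more than 1 gene.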
